A study of Homo sapiens with 3 samples.

Results

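The transcript signal of LNCaP cells was described over all arrays of the study, with the mean of every gene taken across all 6 signal columns and no knockdown ratio. The genes were those named by exactly 1 symbol on the array. They numbered 20399 of 20399 in the series, since no gene was selected by its value. LNCaP is an established line of human prostate cancer cells that respond to androgen. Its cells had received small interfering RNAs (siRNAs) against SHOT-RNAs, which are transfer RNA fragments made in hormone-dependent cancers. The 3 arrays were 5'-Lys KD (siRNA at 20 nM against the fragment from the 5' end of tRNA-Lys), 5'-Asp KD (20 nM, against that from the 5' end of tRNA-Asp) and 3'-Asp KD (10 nM, against that from the 3' end of tRNA-Asp). Each was hybridised with RNA of cells given an siRNA to Renilla luciferase (R-Luc), which human cells lack. Cells grew in IMEM with L-glutamine and 5% fetal bovine serum, total RNA was taken 72 h after transfection, and no untransfected culture was used here.

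Each array gave 2 signal columns, and below the first column of an array always precedes its second. By the dye labels the first column (Cy3) held the knockdown RNA and the second (Cy5) the R-Luc RNA. The order of arrays in lists of values is 5'-Lys, then 5'-Asp, then 3'-Asp. On both Asp arrays the column names give the control to the first column, so which RNA a column holds is not settled there. There was 1 array per knockdown, so the 6 columns are not replicates. A standard deviation (SD) given below is the spread over the 6 columns, in which siRNA, dye, array and culture cannot be told apart. Signals are log2 intensities after subtraction of the column's median, so a value of 0 is the median probe. Median intensities were 70.9 to 95.1. Across genes, which are not independent replicates, Pearson's r between columns was 0.988 to 0.996 over the 15 pairs.

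In a cell population most messenger RNA comes from a limited set of housekeeping genes for translation, energy and the cytoskeleton. A further layer marks the cell's lineage, and a large share of the genome's genes is silent. In the prostate, luminal cells line the ducts, secrete kallikreins and carry the keratins of simple epithelia, while basal cells beneath them carry other keratins and the factor p63. LNCaP is known as a luminal type of line.

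The signals fell into 5 classes. The top class, at a mean of 6 or more and so at least 64-fold above the column median, held 1721 genes (8.44%). The high class, from 4 up to 6, held 2677 genes (13.1%). Both are called abundant here, and together they held 4398 genes, 21.6% of all. The moderate class, from 0 up to 4, was the largest with 6737 genes (33.0%), and 4540 genes (22.3%) were in the low class. The remaining 4724 genes, 23.2% of all, stayed under 4 times the negative control probe in every column and are said to be at background level.

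**Figure D1:**
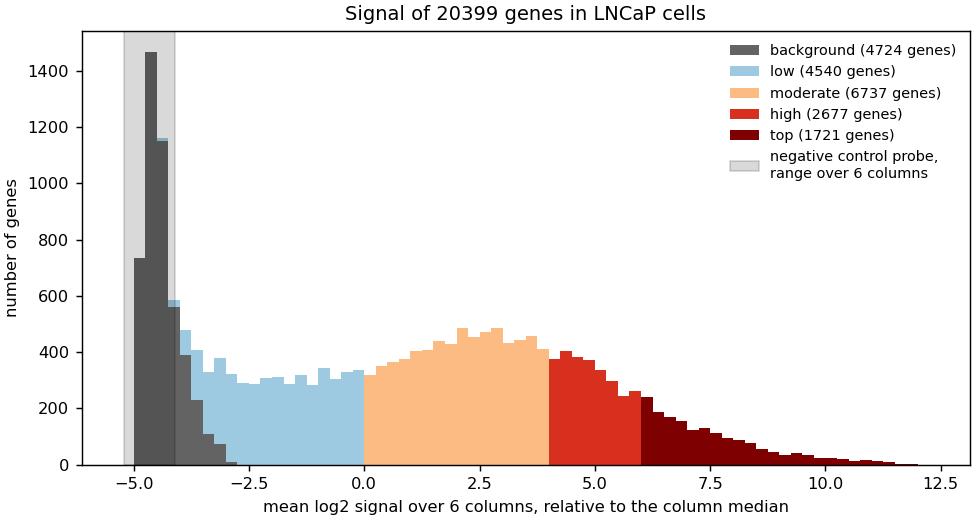
Number of genes (vertical axis) by mean log2 signal over the 6 columns relative to the column median (horizontal axis), coloured by signal class. Genes at background level pile up over the grey band of the negative control probe, which read -5.20 to -4.11, and a broad second hump runs through the moderate and high classes.

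The classes are classes of probe signal and not of copy number, because a probe's brightness depends on its sequence as well as on the transcript. Of the 20399 genes, 5965 had more than 1 probe, and the probes of such a gene lay a median of 2.34 log2 units apart. The gene value is the mean of its probes. Protein-coding genes were abundant in 23.2% of 18135 cases and at background level in 21.2%. Genes of long noncoding RNAs were abundant in 5.46% of 1283 cases and at background level in 44.7%.

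The highest signals belonged to the translation machinery. Of the 20 genes of highest mean, uncharacterised loci left out, 16 encode ribosomal proteins, the protein parts of the ribosome, and RPL19 read 11.51 and 11.63 on the 5'-Lys array, 11.66 and 11.91 on the 5'-Asp array, and 11.54 and 11.70 on the 3'-Asp array. All of its columns lay within 0.40 of each other. The other 4 were SNAR-A3, a small noncoding RNA of a multicopy family, at 11.97 ± 0.24 (SD, 6 columns, as in all values so written), CYP2W1, a cytochrome P450, at 11.74 ± 0.23, SLC66A1, a lysosomal transporter of cationic amino acids, at 11.50 ± 0.46, and MIF, a cytokine made by many cells, at 11.24 ± 0.22. CYP2W1 and SLC66A1 each rest on 1 probe.

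Of 77 cytoplasmic ribosomal protein genes, 73 were abundant, against 21.6% of all genes, and their median signal was 10.43. The exceptions were RPL28 (3.63) and RPL27A (2.77) in the moderate class, RPL3L (-0.27), known as a muscle form, in the low class, and RPL39L (-4.25), known as a testis form, at background level. The 4 probes of RPL28 averaged -2.87, 1.59, 5.52 and 10.28, so its class depends on the probe. Signals of the abundant ribosomal protein genes were also steady: 1 of the 73, RPL22L1, differed by 2-fold or more between its lowest and highest column, against 8.57% of abundant genes, and 0 did so after the shift of abundant genes described below was removed. Translation factors were abundant in 15 of 15 cases, led by EIF1 at 10.97 ± 0.17, which takes part in choosing the start codon.

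Many ribosomal protein messages start with a C followed by a run of pyrimidines, the element by which their translation is regulated. Start windows of abundant genes with and without this run are printed to show it, from 10 bases before to 20 bases from the RefSeq start onwards, read from RefSeq (GRCh38.p14). Capitals mark a C at the start position with at least 4 pyrimidines (C or T) after it. The first 4 are ribosomal protein genes among the 20 genes of highest mean, and RPL19, the highest of them, has no run at the annotated start. EIF1, the highest translation factor gene, has none either, while EEF1A1, which encodes an elongation factor, has one. GAPDH and KLK3 are abundant genes without the run.
RPL19: tctccccttcgcagataatgggaggagccg
RPL41: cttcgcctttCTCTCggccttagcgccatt
RPL38: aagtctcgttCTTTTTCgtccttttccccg
RPL35A: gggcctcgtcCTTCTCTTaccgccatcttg
EIF1: ccgcccctctgccccagtcactgagccgcc
EEF1A1: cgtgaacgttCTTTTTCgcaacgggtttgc
GAPDH: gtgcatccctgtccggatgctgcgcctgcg
KLK3: gaggctccccagccccaagcttaccacctg
The windows lie at chr17:39200273-39200302 on the plus strand (RPL19), chr12:56116623-56116652 on the plus strand (RPL41), chr17:74203668-74203697 on the plus strand (RPL38), chr3:197950180-197950209 on the plus strand (RPL35A), chr17:41688875-41688904 on the plus strand (EIF1), chr6:73521013-73521042 on the minus strand (EEF1A1), chr12:6535254-6535283 on the plus strand (GAPDH) and chr19:50854905-50854934 on the plus strand (KLK3). Of the 65 ribosomal protein genes with a promoter sequence among 73 looked up, 43 (66.2%) had the run at the start. The share was 4.60% over all 14746 promoters searched and 7.45% in the top class without ribosomal proteins. The run was searched on the gene's strand at the annotated start only.

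Energy metabolism and protein folding stood beside translation. ATP synthase subunits were abundant in 19 of 19 cases, against 21.6% of all genes, with a median of 9.31. Complex I subunits were abundant in 33 of 35 cases and mitochondrial ribosomal proteins in 68 of 77. Of 16 glycolysis genes 14 were abundant, led by GAPDH at 10.20 ± 0.23. The exceptions were ALDOC (3.62), the aldolase of brain, and HK2 (0.63), an inducible hexokinase whose 2 probes disagreed by 8.72. Chaperones were abundant in 14 of 17 cases, and HSPD1, the mitochondrial chaperonin, read 10.89 ± 0.31.

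The cytoskeleton list had 12 of 13 genes in the top class, against 8.44% of all genes. Alpha-tubulin TUBA1B (10.85 ± 0.26) and beta-actin ACTB (9.20 ± 0.20) stood near its upper end. The 1 gene outside was TMSB4X, which encodes the actin-sequestering thymosin beta-4. It read 4.43 and 3.73 on the 5'-Lys array, 2.13 and 1.75 on the 5'-Asp array, and 3.33 and 2.66 on the 3'-Asp array. Its arrays did not overlap, with 5'-Lys highest. The related TMSB10 was in the top class at 6.84 ± 0.47.

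Proteasome subunits were abundant in 33 of 39 cases, against 21.6% of all genes, with PSMA6, a ring subunit of the core, at 9.15. The 4 lowest were PSMD5 (-1.05), an assembly chaperone, PSMB8 (-2.36), an interferon-induced subunit of the immunoproteasome, PSMB11 (-3.55), known from the thymus, and PSMA8 (-4.82), known from the testis. The other immunoproteasome subunits, named after their values were seen, differed from PSMB8: PSMB9 read 2.50 and PSMB10 8.13.

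Luminal prostate genes were well represented among abundant genes. Of 31 measured markers 16 (51.6%) were abundant, against 21.6% of all genes, and 0 were at background level, against 23.2%. The median of the list was 4.88, against 0.69 over all genes. In RNA of a whole culture, fewer cells of a type and less RNA per cell cannot be told apart.

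HOXB13, a homeobox factor of the prostate, had the highest signal of the list, with 7.83 and 8.54 on the 5'-Lys array, 8.92 and 8.95 on the 5'-Asp array, and 8.43 and 8.65 on the 3'-Asp array. Only the first 5'-Lys column was below 8. KRT18, a keratin of simple epithelia, read 8.05 ± 0.18, STEAP1, a cell surface protein of the prostate, 7.98 ± 0.34, and FOLH1, which encodes prostate-specific membrane antigen, 7.75 ± 0.32. Further abundant members, named after their values were seen, were the prostate membrane protein SLC45A3 (7.65 ± 0.42), the epithelial adhesion genes EPCAM (7.36 ± 0.18) and CDH1 (7.18 ± 0.14), the androgen-driven protease gene TMPRSS2 (5.82 ± 0.31), and the luminal factor SPDEF (5.53 ± 0.33). Of the 31 markers 12 were moderate and 3 low. Moderate members, also named afterwards, included the keratin gene KRT8, whose 3 probes averaged 0.27, 4.57 and 5.70. The kallikrein gene KLK2 was moderate too, with 2 probes at 1.48 and 5.13.

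KLK3, which encodes prostate-specific antigen, varied most of the abundant luminal markers. It read 6.04 and 6.71 on the 5'-Lys array, 6.71 and 7.40 on the 5'-Asp array, and 5.17 and 6.12 on the 3'-Asp array. The second column was above the first on all 3 arrays, and the first 3'-Asp column was the lowest. Its 2 probes averaged 3.47 and 9.25. Such gaps were common in the list: 12 of 15 luminal genes with several probes had probes at least 2 apart, against 3305 of 5965 over all genes.

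FOXA1, a pioneer factor of the androgen response, shows how far the class of a gene can depend on that. Its 2 probes averaged 0.17 and 7.37, and their mean, 3.77, put it in the moderate class. With the brightest probe of each gene in place of the mean, 22 of 31 luminal markers were abundant, against 26.9% of all genes. The 4 lowest markers were MSMB (1.61 ± 0.32), a secreted protein of the prostate, ACP3 (-0.14 ± 0.42), prostatic acid phosphatase, the cold channel gene TRPM8 (-0.15 ± 0.55) and the noncoding RNA PCA3 (-0.88 ± 0.20), a urine marker of prostate cancer.

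**Figure D2:**
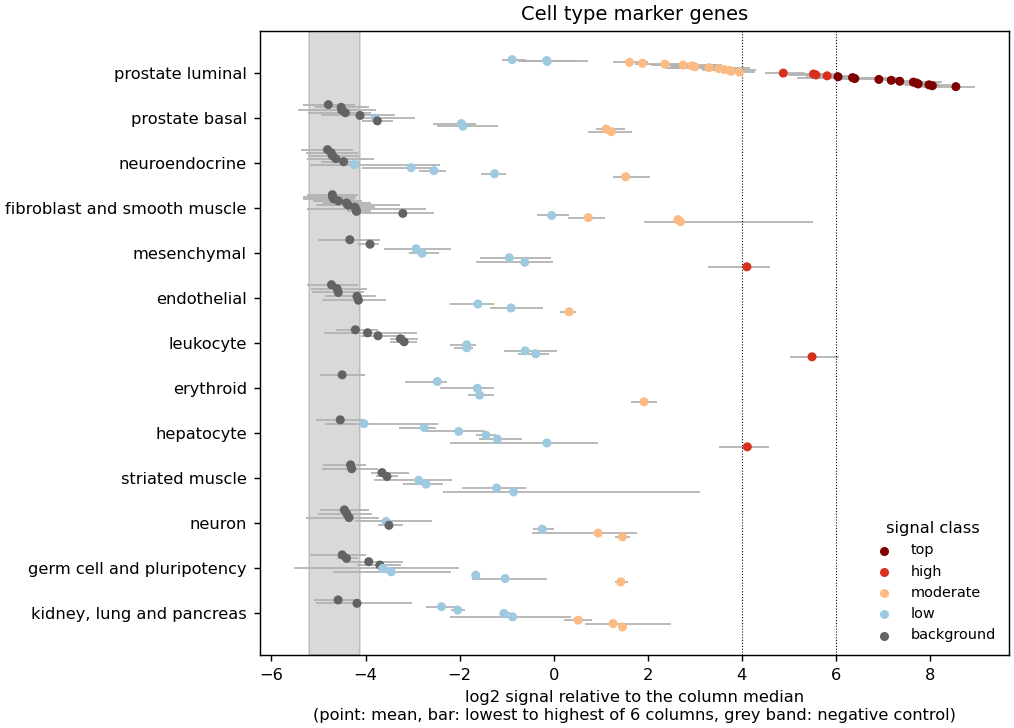
Marker genes of 13 lists (rows), each point a gene's mean log2 signal relative to the column median and each bar its lowest to highest column; dotted lines mark the limits of the high and top classes and the grey band the negative control probe. Luminal prostate genes reach 8.55, and 3 markers of all other lists lie above 4.

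Basal markers were abundant in 0 of 11 cases, against 21.6% of all genes, and 6 were at background level (54.5%, against 23.2%). KRT5, the defining basal keratin, read -4.47 and -5.19, -4.23 and -5.03, and -4.50 and -5.34 over the 3 arrays, where the negative control probe read -4.36 and -5.08, -4.11 and -4.91, and -4.37 and -5.20. KRT5 was thus below the control in every column. TP63, which encodes p63, averaged -4.51. The highest basal markers were KRT15 (1.23) and S100A2 (1.12), both moderate.

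Neuroendocrine markers, which rise in hormone-resistant prostate cancer, were abundant in 0 of 10 cases and at background level in 5, against 21.6% and 23.2% of all genes. ENO2, neuron-specific enolase, was moderate at 1.53. CHGA, the gene of chromogranin A, read -4.33 and -5.02, -4.08 and -2.42, and -4.36 and -5.18 over the 3 arrays. The second 5'-Asp column stood apart, and the other 5 lay close to the negative control probe.

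Markers of fibroblasts and smooth muscle were abundant in 0 of 14 cases, with 10 at background level, and those of endothelium in 0 of 8, with 5 at background level, against 21.6% abundant and 23.2% at background level among all genes. Over the 65 markers of leukocytes, red cells, liver, striated muscle, neurons, germ cells, endothelium, kidney, lung and pancreas together, 2 were abundant (3.08%, against 21.6% of all genes) and 26 at background level (40.0%, against 23.2%). One was CD79A, a part of the B cell receptor, at 5.50 ± 0.34 from 1 probe. The pan-leukocyte gene PTPRC (-3.26) and the B cell gene MS4A1 (-4.22) were both at background level. The other was the liver gene TTR, a carrier of thyroid hormone, at 4.12 ± 0.45, while albumin (ALB) read -0.14 and fibrinogen (FGB) -4.54. At background level, the lists of red cells (1 of 5), liver (1 of 8) and kidney, lung and pancreas (2 of 9) did not exceed the 23.2% of all genes. The other lists among the 65 markers did. These shares depend on the limit: under 2 times the negative control they were 12 of 65 markers and 3079 of 20399 genes.

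Of 7 mesenchymal genes, VIM was abundant, with 3.91 and 4.36 on the 5'-Lys array, 4.01 and 3.28 on the 5'-Asp array, and 4.51 and 4.59 on the 3'-Asp array. VIM encodes vimentin, an intermediate filament. The repressors of epithelial genes ZEB1 (-3.90) and ZEB2 (-4.33) were at background level, and FN1, fibronectin, was low at -0.61.

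A short list of genes known to be low or lost in LNCaP held 7 measured genes. Of these 0 were abundant, against 21.6% of all genes, and 2 were at background level (28.6%, against 23.2%). With 7 genes these shares cannot set the list apart from all genes. The glucocorticoid receptor gene NR3C1 read -4.56 and -4.05, -4.27 and -4.55, and -4.57 and -5.40 over the 3 arrays and was at background level, as was CAV1 (-3.75), the caveolin of plasma membrane pits. JAK1 (-2.38), a cytokine receptor kinase, CD44 (-1.96), an adhesion receptor, GSTP1 (-1.43), a glutathione transferase silenced in most prostate cancers, and ANXA1 (-1.38), an annexin, were low. LGALS3, a galectin, was moderate at 2.27, with its 2 probes 7.21 apart.

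Of other steroid receptors, PGR (-4.70) and ESR2 (-4.49) were at background level, ESR1 was low at -2.85 and the mineralocorticoid receptor gene NR3C2 was moderate at 1.31. Among ETS factors, which fuse with TMPRSS2 in many prostate cancers, ERG (-4.42), ETV4 (-3.41) and ETV5 (-4.62) were at background level. ETV1, the member known to be rearranged in LNCaP, was moderate at 1.68 ± 0.66, and its 4 probes spanned 4.12. In the low and background classes 46.7% and 81.1% of genes differed by 2-fold or more between columns, beside a negative control probe that was itself brighter in the first column of each array.

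Gene families of other tissues filled the lower classes. Olfactory receptors, the odour sensors of the nose, were at background level in 243 of 361 cases (67.3%, against 23.2% of all genes) and abundant in 0. Interferon and interleukin ligands were at background level in 35 of 52 cases, beta-defensins in 21 of 34 and keratin-associated proteins of hair in 34 of 90. The ZNF zinc finger genes, many of which encode transcriptional repressors, were an intermediate family: 304 of 513 were moderate, 12.5% abundant and 6.43% at background level.

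Cancer-testis antigens, which are normally restricted to germ cells, split within their families. Of 21 MAGE-A, MAGE-B and GAGE genes 7 were abundant (33.3%, against 21.6% of all genes) and 8 at background level (38.1%, against 23.2%). GAGE7 was highest at 9.94, followed by MAGEA6 (7.82), MAGEA12 (7.17) and MAGEA2B (7.02), while MAGEB10 (-4.81), MAGEB16 (-4.77), MAGEA9 (-4.72) and GAGE1 (-4.72) were at background level. Copies within these families are nearly identical in sequence, and how far their probes share transcripts was not tested.

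Promoters differed in base content along the classes. The CpG ratio, the CpG count over that expected from the C and G content, was taken over 300 bases around the start of 14746 protein-coding genes with a RefSeq promoter (84.3% of those looked up). Its median was 0.865 in the top class, 0.865 in the high class, 0.827 in the moderate class, 0.585 in the low class and 0.356 at background level. Olfactory receptors, with 0 abundant genes, had a median of 0.118, but the 7 genes known to be low or lost in LNCaP, also with 0 abundant genes, had a median of 0.848. The TATA motif, searched as TATAAA on the gene's strand within the 50 bases before the start, was in 3.63% of promoters in the top class, 1.69% in the high class, 1.51% in the moderate class, 5.78% in the low class and 7.92% at background level.

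**Figure D3:**
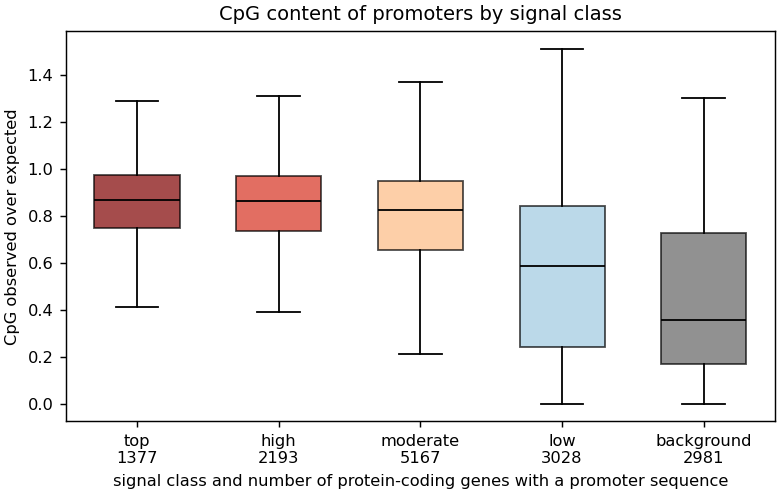
CpG observed over expected (vertical axis) in promoters of protein-coding genes by signal class (horizontal axis, with the number of genes); boxes are quartiles, lines medians and whiskers the farthest values within 1.5 box heights. The medians of the top, high and moderate classes lie at 0.827 to 0.865 and those of the low and background classes at 0.585 and 0.356.

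Among abundant genes, the scale of the columns had to be considered first. After centring on the probe median, the median of the 4398 abundant genes was 5.45 and 5.41 on the 5'-Lys array, 5.70 and 5.68 on the 5'-Asp array, and 5.51 and 5.49 on the 3'-Asp array. The whole abundant population was thus up to 0.28 higher in the 5'-Asp columns. Values below are as centred on the column median, and counts are given also after this shift was removed, an alternative chosen after the data were seen.

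A difference of at least 2-fold between lowest and highest column was found in 377 of 4398 abundant genes (8.57%), and in 264 (6.0%) after the shift was removed. Without the 5'-Lys array the count was 115 of 4466 (2.58%), and without the 5'-Asp array 133 of 4314 (3.08%). For each gene the sum of squares over the 6 columns was split into a part between arrays, a part between first and second columns, and the rest. Of the 377 genes, the part between arrays was largest in 206, that between columns in 151 and the rest in 20. With the shift removed the numbers were 126, 110 and 28 of 264.

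The order of arrays depended on the scale. Of the 206 genes led by array, 178 were highest on the 5'-Asp array and 174 lowest on the 5'-Lys array. After removal of the shift, 58 of 126 were highest on the 5'-Asp array, 46 on the 5'-Lys array and 22 on the 3'-Asp array. The first 5'-Lys column was the farthest from the gene's median in 167 of the 377 genes and in 110 of the 264.

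**Figure D4:**
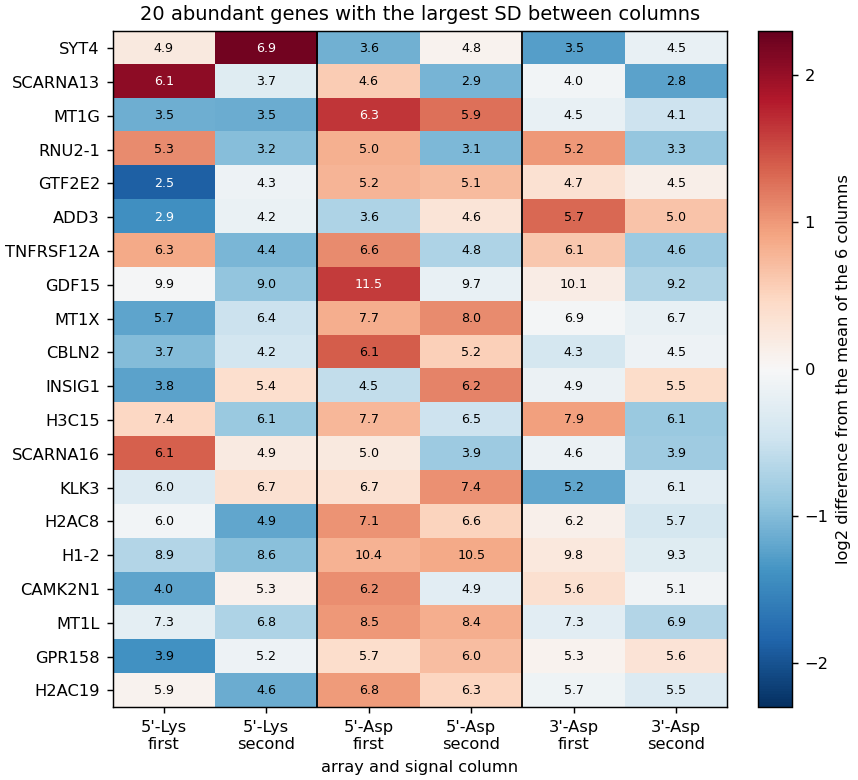
The 20 abundant genes with the largest SD over the 6 columns (rows), with the centred log2 signal printed in each cell and coloured by its difference from the gene's mean. MT1G, MT1X and MT1L are high in both 5'-Asp columns, RNU2-1 and TNFRSF12A are higher in every first column, and SYT4 is highest in the second 5'-Lys column.

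Among the most variable genes, SYT4, a synaptotagmin of vesicle release, read 4.94 and 6.94 on the 5'-Lys array, 3.61 and 4.80 on the 5'-Asp array, and 3.45 and 4.54 on the 3'-Asp array. The second column exceeded the first on every array, and the 5'-Lys array was highest. INSIG1, which holds back cholesterol synthesis, read 3.82 and 5.45, 4.50 and 6.20, and 4.92 and 5.48 in the same order. Its first column was the lower one on every array.

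GDF15, a stress-induced secreted cytokine, read 9.87 and 8.98 on the 5'-Lys array, 11.51 and 9.72 on the 5'-Asp array, and 10.07 and 9.21 on the 3'-Asp array. It was higher in each first column, and the first 5'-Asp column stood apart at the top. TNFRSF12A, the receptor of the cytokine TWEAK, read 6.34 and 4.41, 6.56 and 4.76, and 6.09 and 4.64 in the same order. Its 3 first columns did not overlap its 3 second columns.

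Noncoding RNAs of the splicing machinery were among the column-led genes. RNU2-1, the U2 small nuclear RNA, read 5.28 and 3.21, 5.00 and 3.15, and 5.19 and 3.29 over the 3 arrays, and SCARNA13, a small Cajal body RNA, 6.08 and 3.73, 4.61 and 2.95, and 3.96 and 2.78. Both were higher in every first column. Of the 151 column-led genes, 70 were higher in the first column on all 3 arrays, 80 in the second and 1 was mixed. Dye and siRNA cannot be told apart in these differences.

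Other variable genes had patterns of their own. GTF2E2, which encodes a part of the basal factor TFIIE, was lowest in the first 5'-Lys column, at 2.51, against 4.26 to 5.16 in the other 5 columns. ADD3, an adducin of the membrane skeleton, read 2.92 and 4.19, 3.63 and 4.64, and 5.66 and 5.00 over the 3 arrays. Both 3'-Asp columns were above all others, and on the other arrays the first column was the lower one. CBLN2, a synapse organiser, read 3.67 and 4.24, 6.06 and 5.22, and 4.27 and 4.55 in the same order, with both 5'-Asp columns on top.

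The least variable abundant genes were STRBP, an RNA-binding protein gene, with an SD of 0.02 around 6.18, MEX3C (0.02 around 5.16), a ubiquitin ligase gene, MAP2K7 (0.03 around 6.17), a kinase gene of the JNK pathway, WDR26 (0.04 around 4.12) and POU2F1 (0.04 around 4.22). POU2F1 encodes OCT1, the factor that binds the octamer of histone H2B promoters. Its columns lay between 4.18 and 4.28. The ranking was made on the column-median scale, on which abundant genes as a whole were up to 0.28 higher in the 5'-Asp columns. STRBP and the other genes named here did not share that rise, so their flatness holds for this scale only.

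Metallothioneins were high on the 5'-Asp array in both columns. They are small cysteine-rich proteins that bind zinc and copper, and their genes carry metal response elements bound by the zinc-sensing factor MTF1. Of 12 measured metallothionein genes 7 were abundant, and 6 of these 7 differed by 2-fold or more between columns, against 8.57% of abundant genes. All 6 were highest on the 5'-Asp array and 5 of them lowest on the 5'-Lys array. With the shift removed, 5 of 7 differed, against 6.0%, and all 5 were highest on the 5'-Asp array, while 2 were lowest on the 5'-Lys array and 3 on the 3'-Asp array.

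MT2A, the main ubiquitous form, read 9.36 and 9.04 on the 5'-Lys array, 10.52 and 10.42 on the 5'-Asp array, and 9.39 and 9.05 on the 3'-Asp array. Both 5'-Asp columns were above all others. MT1X read 5.69 and 6.41, 7.74 and 8.0, and 6.87 and 6.73 in the same order, and MT1G 3.50 and 3.48, 6.28 and 5.90, and 4.46 and 4.15. In both genes the 5'-Asp array was highest and the 5'-Lys array lowest.

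The exception was MT3, the form known from brain, which read 5.53 to 5.67. MT1F, MT1E and MT1H, below the abundant classes, were also highest in both 5'-Asp columns. MT1H read 1.23 and 1.25 there, against -1.39 to -0.59 elsewhere. MT4 and MT1M were at background level. MT1B and MT1L had nearly the same values in every column (7.31 and 6.87, 8.49 and 8.33, and 7.32 and 6.83 for MT1B over the 3 arrays), and how far probes of these near-identical genes share transcripts was not tested. Without the 5'-Asp array 1 of the 6 metallothioneins still abundant differed by 2-fold or more, against 3.08% of abundant genes.

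The promoters of MT2A and MT1X are printed because their genes moved with the array. They are the 250 bases before the RefSeq start (GRCh38.p14), at chr16:56608334-56608583 on the plus strand (MT2A) and chr16:56682220-56682469 on the plus strand (MT1X), and capitals mark the metal response element searched as TGCNCNC on both strands, overlaps included.
MT2A: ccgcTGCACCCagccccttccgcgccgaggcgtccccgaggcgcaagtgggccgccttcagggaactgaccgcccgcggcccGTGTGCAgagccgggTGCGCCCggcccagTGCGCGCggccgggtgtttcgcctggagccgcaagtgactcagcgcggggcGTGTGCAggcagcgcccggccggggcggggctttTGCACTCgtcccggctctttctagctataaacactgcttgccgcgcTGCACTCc
MT1X: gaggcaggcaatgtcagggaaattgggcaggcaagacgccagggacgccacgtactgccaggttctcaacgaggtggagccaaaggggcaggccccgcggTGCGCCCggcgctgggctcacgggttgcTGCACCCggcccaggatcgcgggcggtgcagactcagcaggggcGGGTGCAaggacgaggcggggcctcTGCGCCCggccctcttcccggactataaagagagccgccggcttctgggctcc
The MT2A window holds 7 matches and the MT1X window 4. Over all 14746 promoters of 300 bases, 9.75% held 3 or more. Only 5 of the 11 metallothionein genes looked up had a promoter sequence, too few for a share over the family. All 5 held 3 or more matches in their 300 bases, whether or not the gene was abundant. In the 250 bases before the start MT1H held 8 and MT1B 5. MT4, which was at background level, held 5 as well.

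Replication-dependent histone genes were the list with the most varying members. They make the bulk histones during DNA replication, and their messages end in a stem-loop in place of a poly(A) tail. Of 65 measured genes 49 were abundant, and 31 of the 49 (63.3%) differed by 2-fold or more between columns, against 8.57% of abundant genes. All 31 were highest on the 5'-Asp array and lowest on the 5'-Lys array. With the shift removed 24 of 49 differed, against 6.0%, of which 23 were highest on the 5'-Asp array and 24 lowest on the 5'-Lys array.

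The linker histone gene H1-2 read 8.93 and 8.64 on the 5'-Lys array, 10.40 and 10.48 on the 5'-Asp array, and 9.85 and 9.32 on the 3'-Asp array. The 3 arrays did not overlap. H2BC12 read 7.39 and 6.75, 8.27 and 8.14, and 7.55 and 7.27 in the same order, and H2AC8 6.04 and 4.92, 7.14 and 6.61, and 6.23 and 5.70. In all of these the second 5'-Lys column was the lowest of the 6.

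The histone classes differed in how many members varied. All 12 abundant H2B genes and all 4 H1 genes differed by 2-fold or more, as did 9 of 11 H2A genes, but 3 of 11 H3 genes and 3 of 11 H4 genes did. With the shift removed the counts were 12 of 12, 4 of 4, 6 of 11, 1 of 11 and 1 of 11. Among all abundant genes the shares were 8.57% before and 6.0% after removal of the shift. The 1 of 11 for H3 and for H4 was close to the 6.0%. The median range over the columns was 1.50 for H2B, 1.57 for H1, 1.33 for H2A, 0.80 for H3 and 0.89 for H4. H4C3, the highest histone gene at 10.88, had a range of 0.83. The H3 gene H3C15 was an exception in kind: it read 7.39 and 6.07, 7.68 and 6.46, and 7.87 and 6.07 over the 3 arrays, so that it followed the column and not the array.

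The histone pattern was not equal in both columns. Relative to each gene's own mean and with the shift removed, the median of the 49 abundant genes was -0.12 and -0.52 on the 5'-Lys array, 0.42 and 0.29 on the 5'-Asp array, and 0.17 and -0.23 on the 3'-Asp array. Over the first columns alone 7 of 49 differed by 2-fold or more, against 2.95% of abundant genes, and over the second columns alone 24 did, against 1.0%. Without the 5'-Lys array 15 of 49 differed, against 2.58%, and without the 5'-Asp array 8, against 3.08%. Many histone genes of a class are close in sequence, so their values cannot be taken as independent, and how far their probes share transcripts was not tested.

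**Figure D5:**
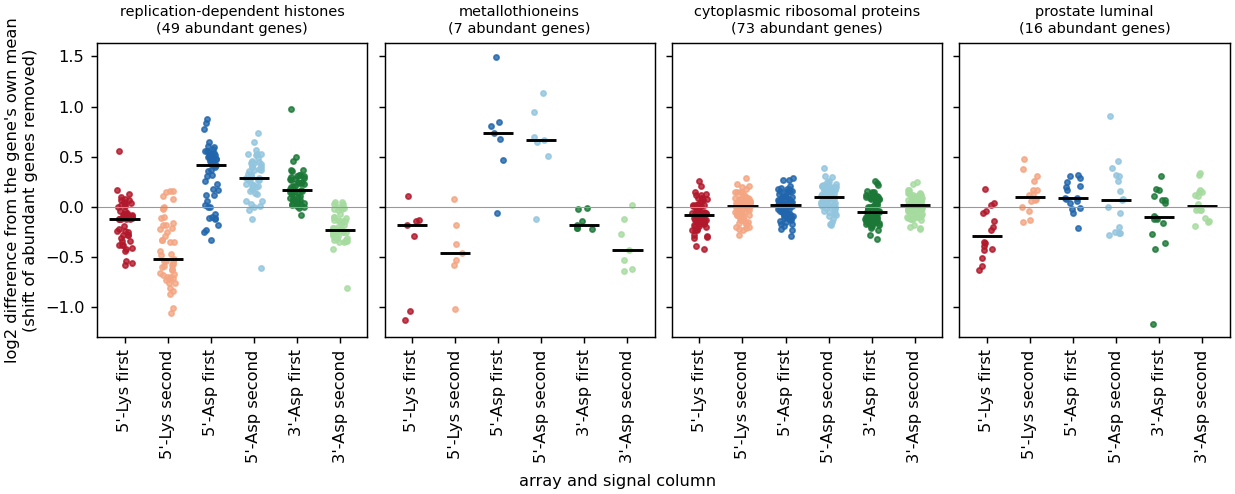
Log2 difference of each abundant gene from its own mean (vertical axis) in the 6 columns (horizontal axis), with the shift of abundant genes removed; points are genes and bars medians. Histone and metallothionein genes lie above their means in both 5'-Asp columns at the median, while ribosomal protein medians stay within -0.08 and 0.10 and luminal genes are lowest in the first 5'-Lys column at -0.29.

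Promoters of 4 H2B genes are printed because that class varied in every abundant member, 3 of them chosen because they hold the octamer and H2BC5 because these bases of it hold none. They are the 120 bases before the RefSeq start (GRCh38.p14), at chr6:27146856-27146975 on the minus strand (H2BC12), chr6:26272811-26272930 on the plus strand (H2BC10), chr6:26216689-26216808 on the minus strand (H2BC8) and chr6:26158001-26158120 on the plus strand (H2BC5), with the octamer ATTTGCAT, the binding sequence of OCT1, in capitals.
H2BC12: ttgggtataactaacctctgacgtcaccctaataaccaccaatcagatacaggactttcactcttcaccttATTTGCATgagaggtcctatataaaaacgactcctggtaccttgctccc
H2BC10: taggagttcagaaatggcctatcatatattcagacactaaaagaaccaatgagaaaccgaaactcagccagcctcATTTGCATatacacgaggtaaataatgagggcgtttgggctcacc
H2BC8: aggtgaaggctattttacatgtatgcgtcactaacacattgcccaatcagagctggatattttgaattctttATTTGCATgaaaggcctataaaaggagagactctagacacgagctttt
H2BC5: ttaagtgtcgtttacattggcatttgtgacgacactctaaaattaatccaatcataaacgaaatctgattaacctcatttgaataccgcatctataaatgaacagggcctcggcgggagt
The octamer, searched on both strands over 300 bases, was in 14 of 18 H2B promoters (77.8%), in 10 of 42 promoters of other histone genes and in 1.69% of all promoters. TATAAA lay within the 50 bases before the start in 32 of the 60 histone promoters found among 65, against 3.91% of all.

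Luminal genes varied mainly through KLK3. Of the 16 abundant luminal genes 4 differed by 2-fold or more, against 8.57% of abundant genes, namely KLK3, HOXB13, SLC45A3 and SPDEF. With the shift removed only KLK3 of the 16 did, with a range of 2.07, a share close to the 6.0% of abundant genes. HOXB13 then had a range of 0.89, SLC45A3 0.88 and SPDEF 0.78. The median luminal gene was lowest in the first 5'-Lys column, at -0.29 from its mean, with 13 of 16 genes below it. Ribosomal protein medians stayed within -0.08 and 0.10 of the gene means in all 6 columns.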

How the data were processed

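Two-colour arrays measured total RNA of LNCaP cells, with 1 array per knockdown (n = 1 each) and no replicate. Per the file headers the deposited intensity columns are raw signals. The scanner's software and its settings are not given in the labels or headers. All values were positive and both column medians of an array were close, so earlier background correction or dye balancing cannot be told from the values. No detection or saturation flags were used, and the highest intensity was unique in each of the 6 columns (353682 to 422445), so no pile-up at a ceiling was seen. The number of arrays limits the precision.

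The 34183 probes included 56 controls. Of the others 28048 had 1 gene symbol in the platform annotation and 6079 none. Symbols were updated through transcript accessions to RefSeq names (25515), kept as current (2179) or kept as given (354). Log2 intensities were centred on the column median over non-control probes and averaged over a gene's probes. Background level means under 4 times the negative control probe in every column.

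No test was run and no p-value is given, since the columns are not replicates. Named genes were, by rule, the 20 of highest mean, the 20 and 5 abundant genes of largest and smallest SD, the 5 noncoding RNA genes of highest signal, and members of the marker and pathway lists (for lists over 15 genes, the 4 highest and 4 lowest); names of uncharacterised loci were left out, and exceptions are marked. For lists set by name pattern the same rule held, and histone genes beyond it were named after their values were seen. Members and lists were chosen with earlier results of these data known. Some listed genes are not analysed here. Promoters came from a RefSeq table (GRCh38.p14) without chromosome 8, and 1 entry per gene was used. Alternatives were the brightest probe, 3 other scalings, either column alone, other class limits and leaving out each array. The steps were tested on simulated data. Python 3.11.15, numpy 2.4.6, pandas 2.3.3 and matplotlib 3.10.9 were used.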

Additional observations from a re-analysis of the deposited data

Results flagged for a closer look

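Probes without a gene symbol, which no gene value uses, held signal as well: 381 of 6079 were in the top class, 671 (11.0%) were abundant and 2224 (36.6%) were at background level, against 21.6% abundant and 23.2% at background level among named genes. They were singled out because 381 of them reached the top class although the gene values leave them out.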

How the results depend on the processing

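Counts in the top and high classes, at background level, of abundant luminal markers and of other-tissue markers at background level mostly held. They stayed within 1.5 times of the reported count under all alternatives run, except 1 background limit. Under 2 times the negative control, 3079 of 20399 genes and 12 of 65 other-tissue markers were at background level. These shares lay closer together than the reported 23.2% and 40.0%. The count of abundant genes varying 2-fold or more (377) was less stable. It was 228 of 3334 with centring on the median of named genes, 130 of 4402 over first columns only and 44 of 4397 over second columns only. For abundant genes from 5 upwards it was 232 of 2864, a share close to the main 8.57%. Between the 3 array means it was 52 of 4398, and 36 of 4398 between array means with the shift removed. Leaving out an array gave 115 of 4466 to 338 of 4419, with fewer columns to span the range. For histone genes (31 of 49) the count was 7 of 49 over first columns only, against 2.95% of abundant genes. Between array means with the shift removed it was 5 of 49, against 36 of 4398 abundant genes. Leaving out an array gave 8 of 49 (5'-Asp) to 31 of 49 (3'-Asp), against 3.08% and 338 of 4419 abundant genes. For metallothioneins (6 of 7) leaving out an array gave 1 of 6 (5'-Asp) to 6 of 7 (3'-Asp), against the same shares of abundant genes. For ribosomal proteins (1 of 73) the count was 2 of 74 with the brightest probe, against 489 of 5488 abundant genes. It was 0 of 73 with named-gene centring, quantile normalisation, first columns, second columns, array means and both shift-removed settings. When an array was left out it was 0 to 1 of 73. In the settings other than the brightest probe, fewer than 8.57% of all abundant genes varied. Mean signals of 516 of 571 named and listed genes moved by more than their SD with named-gene centring, which shifts all genes of a column alike, and 134 with the brightest probe. No paired analysis was possible because each knockdown has 1 array and no comparison between groups was made. The array on which varying genes were highest or lowest moved with the scale: after removal of the shift 58 of 126 array-led genes were highest on the 5'-Asp array, against 178 of 206 before. The causes were not tested.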

Other observations

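Some genes of the moderate class, chosen after their values were seen, also followed the array in both columns. CTAG1A, a cancer-testis antigen gene, read -0.13 and -0.01 on the 5'-Lys array, 2.40 and 2.34 on the 5'-Asp array, and 0.96 and 1.10 on the 3'-Asp array. NAP1L5, an imprinted gene related to nucleosome assembly proteins, read -1.57 and -1.20, 1.52 and 1.48, and -0.27 and 0.10 in the same order, and FMR1NB, another cancer-testis antigen gene, 0.81 and 0.57, 3.22 and 2.96, and 1.95 and 1.71. In all of these the arrays did not overlap, with 5'-Asp highest and 5'-Lys lowest.

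Others followed single columns. The interferon-induced genes IFIT1 and OASL read 4.72 and 3.86 in the first 5'-Lys column, against 1.80 to 2.38 and 0.60 to 1.56 in the other 5 columns. The smooth muscle actin gene ACTA2 read 5.52 in that column, against 1.91 to 2.51 in the other 5. By contrast C1QTNF5, a complement-related secreted protein gene, was high in every first column. It read 3.0 and -1.48, 3.12 and -1.49, and 3.43 and -1.49 over the 3 arrays (5'-Lys, then 5'-Asp, then 3'-Asp). Causes of these differences were not tested.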
